A study of Mus musculus with 2 samples.

Results

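Cycling T cells of B16F10 tumors are T lymphocytes that carried transcripts of dividing cells at the moment of capture. They were chosen by UMI counts (unique molecular identifiers, each standing for 1 captured transcript). A barcode was a member if it had at least 200 detected genes, at most 10% mitochondrial UMIs, at least 2 UMIs of the CD3 genes Cd3e, Cd3d and Cd3g, and at least 3 UMIs of Mki67 and Top2a together. Barcodes with more than 2 UMIs of C1qa, C1qb and C1qc, more than 1 UMI of Cd79a and Cd79b, or 0.1% or more of their UMIs from Mlana, Pmel, Tyrp1 and Dct were left out, which removes macrophages, B cells and melanoma cells. The rule found 170 of 12815 barcodes that passed the gene and mitochondrial limits. Of these, 86 were among 7086 barcodes of the control library and 84 among 5729 of the library labelled knockout.

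B16F10, a mouse melanoma line, was grown under the skin of C57BL/6 hosts for 14 days. Control hosts carried Usp18f/f, with both copies of Usp18 flanked by recombination sites. The other hosts were Usp18f/f LysM-Cre, in which Cre is made from the Lyz2 (LysM) locus, active in macrophages, monocytes and neutrophils, so that T cells of both groups should keep the floxed gene. Live CD45+ cells of 4 tumors per group were pooled and sequenced as 1 droplet library per group (10x Genomics Chromium 3' v3), and the labels give neither age nor sex of the hosts. The comparison asks how the loss of Usp18, whose product cleaves ISG15 from proteins and dampens the type I interferon receptor, in myeloid cells bears on the immune cells of the tumor. Each group is 1 pool, so no difference between the groups has a replicate check and none was tested. All intervals below are 95% intervals that cover counting error only.

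T cells that meet their antigen in a tumor or its draining node leave the resting state, grow, copy their DNA and divide, while they lose genes of naive and memory cells. Cyclins D with Cdk4 and Cdk6 open the cycle, E2F factors switch on the replication genes, and a later wave of genes bound by the DREAM and MuvB complexes with FoxM1 builds the mitotic spindle. In tumors, CD8 T cells that recognise the tumor can divide while they carry inhibitory receptors such as PD-1, and regulatory T cells, which carry Foxp3, divide as well.

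The targeted gene went against the label. In macrophages chosen by at least 10 UMIs of the C1q genes (777 and 1052 cells, control first), Usp18 (ENSMUSG00000030107, chromosome 6, 121245906 to 121270917, plus strand, GRCm38) was at 19.2 CPM (16.4 to 22.3; UMIs per 1000000 UMIs of the summed cells) in the control and at 66.6 CPM (62.4 to 71.0) in the library labelled knockout. Lyz2, whose locus carries Cre, went with the label, at 7271 CPM in the control and 11.3 CPM in the other library. Over all members, cycling T cells had Usp18 at 3.85 CPM in the control (UMIs in 3 of 86 cells). In the library labelled knockout Usp18 was at 14.6 CPM (15 of 84 cells). Some members also carried transcripts of other immune cells, and a limit on these is set below. Under that limit, Usp18 was at 3.23 CPM (0.665 to 9.43) in the control, with UMIs in 2 of 79 cells. It was at 6.28 CPM (1.71 to 16.1) in the library labelled knockout, with UMIs in 4 of 47 cells. These last intervals overlap. The labels do not say which exons are floxed, and 3' counts outside a deleted part check nothing, so the group is called the library labelled knockout throughout.

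The 2 libraries held 7754 and 6063 barcodes with 43412346 and 48167632 UMIs, at medians of 2600 and 4455 UMIs per barcode (control first). They shared 8 barcode sequences, none of them of a cycling T cell. Cycling T cells were deep: the control cells had a median of 10737.5 UMIs (2515 to 48776) and 3249 genes, and those of the library labelled knockout 14358 UMIs (1656 to 53345) and 3872 genes. T cells with no Mki67 or Top2a UMI, called non-cycling here, had medians of 2415 and 2834 UMIs (1228 and 854 cells). The pools differed in sex: Xist without a Y-linked UMI was seen in 14 control cells and in 61 of the library labelled knockout, and Y-linked UMIs without Xist in 62 and 7. Sex and genotype label cannot be told apart between the libraries.

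Markers of dividing T cells were present in most members. Mki67 (ENSMUSG00000031004, chromosome 7, 135689784 to 135716361, minus strand), the Ki-67 proliferation antigen, had UMIs in 100% of control members and in 96.4% of those in the library labelled knockout, and Top2a, the topoisomerase that untangles replicated DNA, in 91.9% and 91.7%. Both chose the cells and are given as a description. Birc5 (survivin, a part of the mitotic chromosomal passenger complex), which the rule did not use, had UMIs in 80.2% (70.2 to 88.0) and 79.8% (69.6 to 87.7) of cycling cells, against 1.22% and 1.64% of non-cycling T cells at their lower depth. At the threshold, Birc5 was seen in 6 of 38 control cells and 2 of 19 cells of the other library with 2 UMIs of Mki67 and Top2a, just outside the rule, and in 4 of 10 and 6 of 15 cells with 3 UMIs, just inside it. The cells just inside were deeper, with medians of 9644.5 and 8235 UMIs against 4573.5 and 4340, and the part of depth was not tested.

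Some members also carried transcripts of other immune cells, and many more did in the library labelled knockout. A limit of 0.1% of a cell's UMIs from marker lists of macrophages, dendritic cells, neutrophils, B cells and melanoma cells, chosen after the data were seen, was passed by 7 of 86 control cells (8.14%) and by 37 of 84 cells of the library labelled knockout (44.05%). Among non-cycling T cells the shares were 10.3% and 16.5%. The 37 cells were deeper (median 18034 UMIs, against 10289 for the 47 cells under the limit), 10 of them held both Xist and Y-linked UMIs (3 of 47 under the limit), and the doublet caller Scrublet marked 6 of them and none of the 47.

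UMIs of the dendritic list made up most of this signal. Summed over the 37 cells, the dendritic list stood at 4148 CPM and MHC class II genes at 14267 CPM, against 146 and 268 CPM in the 47 cells under the limit. The macrophage list stood at 604 CPM in the 37 cells, with at least 3 UMIs in 24 of them. Of the 37 cells, 23 had at least 10 UMIs of the MHC class II gene H2-Ab1. All 23 held Cst3 (cystatin C, abundant in dendritic cells), and 13 held at least 3 UMIs of Cd209a, a lectin of monocyte-derived and conventional dendritic cells. The other 14 cells all held Cst3, and 9 of them held Fscn1 and 8 Ccr7, which mature migrating dendritic cells express. Most of the dendritic sum was the single gene Cst3, at 3041 CPM in the 23 cells and 4970 CPM in the 14. Other genes of the list were rare: Siglech had no UMI in either set, Xcr1 was seen in 4 and 0 cells and Clec9a in 3 and 1. The 37 cells had a median of 18 CD3 UMIs, against 26 in the shallower cells under the limit. What a barcode with both sets of transcripts holds was not tested, and it is stated below whether a value is over all members or over those under the limit. Under the limit, other markers were lower but not absent. The macrophage list summed to 40.9 and 50.2 CPM (control first), with at least 3 UMIs in 2 of 79 and 2 of 47 cells. The dendritic list summed to 142 and 146 CPM, with at least 3 UMIs in 10 of 79 and 9 of 47 cells and up to 15 and 21 UMIs in 1 cell, and MHC class II genes to 618 and 268 CPM. Ms4a7 and Trem2 of the macrophage list and Xcr1 and Cd209a of the dendritic list were at 0 in both libraries.

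**Figure D1:**
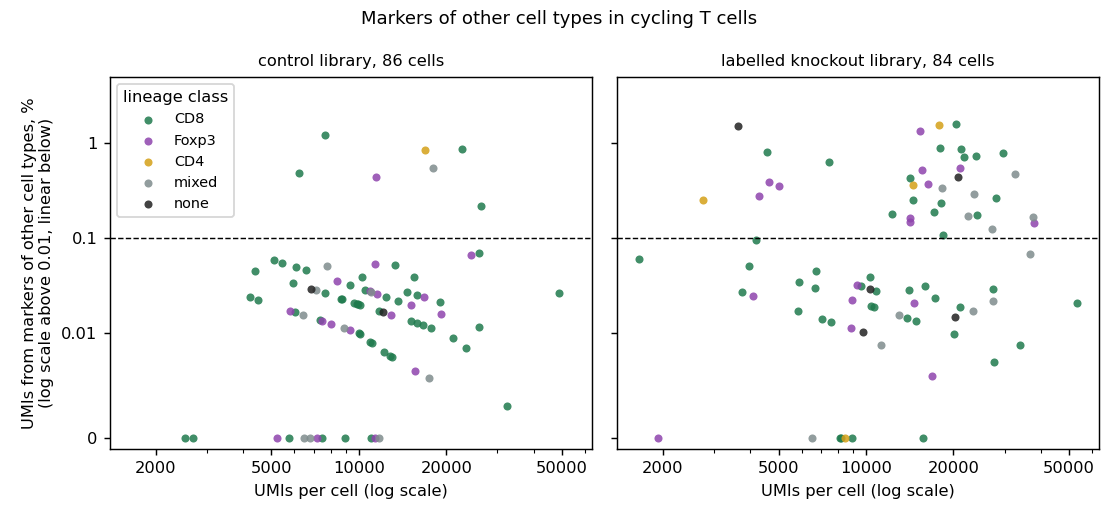
Share of each cycling T cell's UMIs from marker lists of other cell types (y axis, percent, log scale above 0.01 and linear below) against its UMIs (x axis, log scale), 1 point per cell, coloured by lineage class, with the limit of 0.1% as a dashed line. Of 86 control cells 7 lie at or above the line, and of 84 cells of the library labelled knockout 37 do.

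The share of T cells in cycle depended on these barcodes. Cycling cells made up 5.88% (4.73 to 7.21) of the 1463 control T cells and 8.05% (6.47 to 9.86) of the 1044 in the library labelled knockout, a log2 ratio of 0.45 (0.03 to 0.87). Under the limit on other markers the shares were 6.02% and 5.63%, a ratio of -0.10 (-0.60 to 0.41). A rule on UMIs also reads depth. With each cell thinned to 2000 UMIs before the rule was applied, the shares were 14.1% and 13.1% of the T cells left, a ratio of -0.11 (-0.46 to 0.24), and with the limit as well 14.4% and 10.6%, a ratio of -0.43 (-0.83 to -0.03). With this lower minimum, thinning left 135 and 100 members, more than before. Thinning also lowers the UMIs held against the C1q and Cd79 limits. The part of each of these changes was not tested. The direction between the libraries was thus not stable to these choices.

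Most cycling T cells were CD8 cells. Lineage was read from UMIs the rule did not use: CD8 for Cd8a or Cd8b1 without Cd4 or Foxp3, Foxp3 for Foxp3 without Cd8, CD4 for Cd4 alone, mixed for Cd8 with either of the others. The CD8 class held 55 of 86 control cells (64.0%, 52.9 to 74.0) and 46 of 84 cells of the library labelled knockout (54.8%, 43.5 to 65.7). They differed by -9.19 percentage points (-23.3 to 5.48). Without the cells above the limit the shares were 64.6% and 63.8%, a difference of -0.73 points (-18.0 to 15.7). The Foxp3 class held 18 control cells (20.9%) and 17 of the other library (20.2%), and under the limit 21.5% and 14.9%, a difference of -6.63 points (-19.3 to 8.27). In each of these differences the interval includes 0.

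Few cycling cells fell in the CD4 class. There, 1 of 231 control cells was cycling (0.43%), and 4 of 112 in the library labelled knockout (3.57%). Under the limit these were 0 of 208, which allows a share of up to 1.76%, and 1 of 92. By comparison 9.48% of CD8 and 14.1% of Foxp3 cells were cycling in the control, and 11.2% and 13.7% in the library labelled knockout. With the rule applied after thinning, any Mki67 or Top2a UMI was enough, and fewer cells show Foxp3 or Cd8. There, 9 of 114 and 5 of 71 CD4-class cells were cycling (7.89% and 7.04%), against 18.4% and 17.3% of the CD8 class. The mixed class held 10 and 12 cells, and 2 and 5 cells had no lineage UMI.

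Compared with non-cycling T cells, the CD8 class was larger by 26.4 percentage points (15.5 to 36.1) in the control and by 17.4 points (6.29 to 28.1) in the library labelled knockout. Because shallow cells lose lineage UMIs, the same cells were thinned to 2000 UMIs, which left out 353 and 157 non-cycling and 0 and 2 cycling cells. The CD8 class then remained larger by 15.7 points (4.68 to 26.2) and 14.6 points (3.40 to 25.7), and the Foxp3 class by 8.47 points (2.43 to 17.4) and 5.95 points (-0.21 to 15.1). The last interval includes 0, as does that of the Foxp3 class under the limit in the library labelled knockout without thinning (6.76 points, -1.06 to 19.7). As a background level, thinned B cells showed Cd8 UMIs in 0 of 224 and 0 of 134 cells and Cd4 UMIs in 2 and 0.

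**Figure D2:**
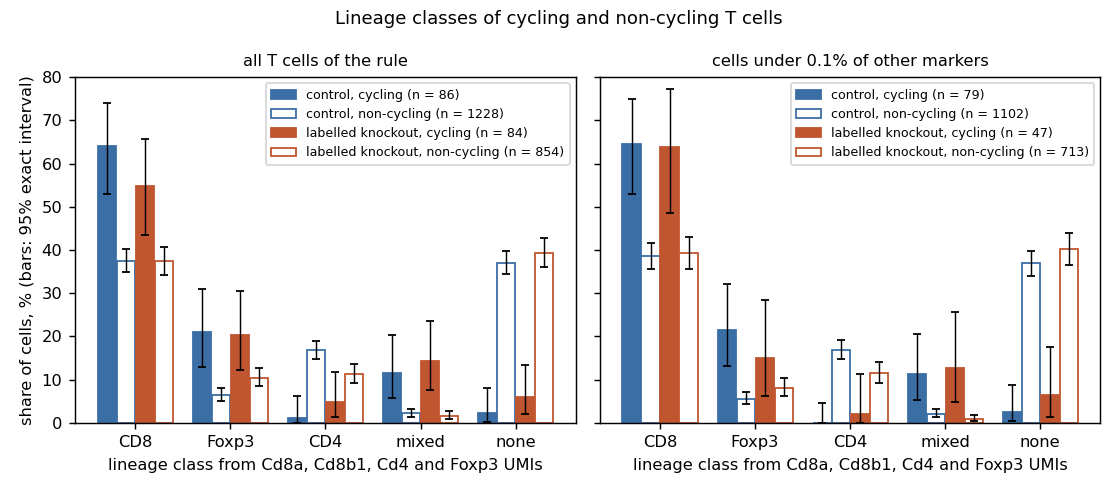
Share of cells (y axis, percent, exact 95% intervals as bars) in each lineage class (x axis) for cycling (filled) and non-cycling (open) T cells of both libraries, for all T cells on the left and those under 0.1% other markers on the right. The CD8 class is 64.0% and 54.8% of cycling cells on the left, and 64.6% and 63.8% on the right.

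The cell cycle program itself comes next, set against non-cycling T cells of the same library. The rule chose cells by 2 genes of this program, so these ratios describe the members and test nothing. Ratios are log2 of (CPM + 5) over (CPM + 5), cycling over non-cycling, for genes with at least 20 UMIs, and each pair of CPM gives non-cycling cells first. Of all measured genes, 7.69% were at least 2-fold higher in the cycling control cells and 8.72% at least 2-fold lower, and 6.02% and 5.33% in the library labelled knockout. Genes past 2-fold in both libraries made up 4.98% (higher) and 3.6% (lower). Under the limit the shares were 9.35% and 9.56%, and 9.48% and 9.46%.

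Mitosis genes stood highest. At least 2-fold higher levels were seen for 53 of 54 measured genes in the control (median log2 ratio 3.63) and for 53 of 54 in the library labelled knockout (3.33), against medians of all genes of -0.06 and -0.02. Under the limit the medians were 3.64 and 3.59 for mitosis, 2.50 and 2.24 for replication, 2.65 and 2.89 for histone genes and 1.05 and 0.92 for regulators of cycle entry, and the values of these 4 groups that follow are over all members. Birc5 (ENSMUSG00000017716, chromosome 11, 117849251 to 117855743, plus strand) was at 4.86 CPM in non-cycling and 334 CPM in cycling control cells, and at 5.44 and 354 CPM in the library labelled knockout. Cenpf, a kinetochore protein, was at 3.78 and 412 CPM and at 2.88 and 336 CPM. Ube2c, which loads ubiquitin for the anaphase-promoting complex, was at 463 and 485 CPM in the cycling cells against 7.55 and 8.97. The member of the list that stood apart was Pttg1 (securin), at 41.8 against 53.9 CPM in the control and at 56.7 against 43.1 CPM in the library labelled knockout. Its ratios were 0.33 (-0.09 to 0.74) and -0.36 (-0.77 to 0.04), so securin, the inhibitor of separase until anaphase, differed by less than 2-fold from resting cells in each library.

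DNA replication and histone genes followed. Of 40 replication genes, 39 were at least 2-fold higher in the control (median 2.41) and 36 in the library labelled knockout (2.01). Mcm3, a subunit of the replicative helicase, was at 32.1 and 225 CPM in non-cycling and cycling control cells, and at 27.5 and 149 CPM in the other library. Rrm2, the subunit of ribonucleotide reductase that is made in S phase, was at 2.70 and 180.0 CPM, and at 5.12 and 135 CPM. Among histone genes 15 of 16 were higher in each library, led by the linker histone Hist1h1b at 4.59 and 549 CPM in the control and 2.56 and 467 CPM in the library labelled knockout. Most replication-dependent histone transcripts lack a poly(A) tail, which a poly(T)-primed 3' library reads poorly, so their levels are not comparable with those of other genes. The histone genes are near-identical copies, and reads may be split or lost among them. Beyond the lists, the largest ratios belonged to 2810417H13Rik (Pclaf, a PCNA clamp-associated factor), at 746 and 581 CPM in cycling cells, and to Stmn1 (stathmin, which destabilises microtubules), at 782 and 715 CPM.

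The promoters of the mitosis and replication genes are shown because most of these genes were higher together in both libraries. Windows run from 250 bases before to 50 bases after the RefSeq start (GRCm38.p6), and capitals mark matches on either strand to 3 motifs: CHR (TTTGAA, the element of the MuvB complexes), CCAAT (the NF-Y box) and E2F (TTTGGCGC or TTTCCCGC). The same letters can be part of matches to more than 1 motif. Hmgb2 (chr8:57511593-57511892, plus strand) and Tubb4b (chr2:25224653-25224952, minus strand) had the highest CPM in cycling cells of the mitosis genes with a window to show. Slbp (chr5:33652525-33652824, minus strand) and Dut came first among the replication genes. Dnmt1 (chr9:20952574-20952873, minus strand, 1 of 3 annotated windows) was added after values were seen, as the replication gene of highest CPM with an E2F match.
Hmgb2: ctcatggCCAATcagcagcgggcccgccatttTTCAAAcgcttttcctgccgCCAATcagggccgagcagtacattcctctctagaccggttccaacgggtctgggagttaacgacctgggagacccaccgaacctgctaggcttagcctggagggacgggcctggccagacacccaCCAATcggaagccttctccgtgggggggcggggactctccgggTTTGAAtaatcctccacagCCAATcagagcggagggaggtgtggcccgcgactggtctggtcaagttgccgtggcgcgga
Tubb4b: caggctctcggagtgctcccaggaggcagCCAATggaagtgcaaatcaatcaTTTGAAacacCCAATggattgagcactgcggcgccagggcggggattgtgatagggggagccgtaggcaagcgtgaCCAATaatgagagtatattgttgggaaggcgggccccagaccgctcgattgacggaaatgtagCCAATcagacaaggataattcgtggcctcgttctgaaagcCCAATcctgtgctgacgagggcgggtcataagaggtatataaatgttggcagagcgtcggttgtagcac
Slbp: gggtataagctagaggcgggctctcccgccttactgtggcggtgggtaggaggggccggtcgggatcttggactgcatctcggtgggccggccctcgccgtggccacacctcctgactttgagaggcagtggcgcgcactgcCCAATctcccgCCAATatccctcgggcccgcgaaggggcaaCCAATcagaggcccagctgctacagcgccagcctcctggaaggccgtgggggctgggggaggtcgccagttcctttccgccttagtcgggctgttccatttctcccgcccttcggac
Dnmt1: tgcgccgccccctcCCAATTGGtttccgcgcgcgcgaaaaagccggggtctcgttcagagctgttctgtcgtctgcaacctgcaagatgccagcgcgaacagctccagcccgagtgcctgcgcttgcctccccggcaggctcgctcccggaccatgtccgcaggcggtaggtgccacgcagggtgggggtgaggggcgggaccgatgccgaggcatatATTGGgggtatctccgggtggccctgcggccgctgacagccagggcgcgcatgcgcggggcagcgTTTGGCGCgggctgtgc
The Hmgb2 window holds 2 CHR and 4 CCAAT matches and that of Tubb4b 1 and 5, while Slbp has 3 CCAAT and Dnmt1 3 CCAAT and 1 E2F match. CHR was found at 35 of 47 mitosis genes with an entry (74.5%) and at 4 of 31 replication genes (12.9%), against 20.2% of 27025 genes in the table. CCAAT was found at 74.5% and 58.1%, against 41.1% of all, and E2F at 4.26% and 32.3%, against 1.80%. These are letter matches in 1 window per start and not measured binding. Birc5 and Dut have none of the 3 in their windows.

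Most members had more UMIs of the mitosis list (56 genes) than of the replication list (40 genes), and the sums were not scaled to each other. The summed replication list exceeded the summed mitosis list in 20 of 86 control cells (23.3%) and in 13 of 84 cells of the library labelled knockout (15.5%). Under the limit on other markers these were 18 of 79 (22.8%) and 11 of 47 (23.4%). It did so in 31.4% and 34.2% of non-cycling T cells and in 19.3% and 27.8% of cycling macrophages. Between cells the mitosis sum ranged from 7.89 to 401 UMIs per 10000 in the control (median 112) and from 5.78 to 308 in the other library (median 85.3). The cut on the replication share is one on a continuous range, with 15 and 17 cells between 40% and 60%. By lineage, under the limit, replication exceeded mitosis in 15 of 51 CD8 and 1 of 17 Foxp3 control cells, and in 7 of 30 and 1 of 7 of the library labelled knockout. Mki67 and Top2a, which chose the cells, are themselves highest late in the cycle.

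**Figure D3:**
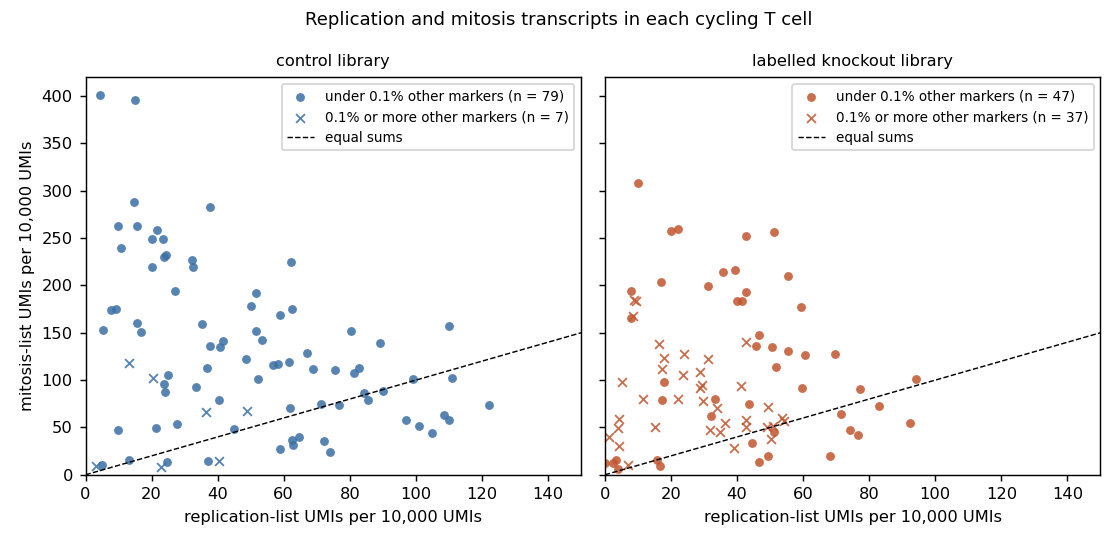
Mitosis-list UMIs (y axis) against replication-list UMIs (x axis) per 10000 UMIs of each cycling T cell, with crosses for cells at or above 0.1% other markers and a dashed line where both sums are equal. Below the line lie 20 of 86 control cells and 13 of 84 cells of the library labelled knockout.

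Regulators of cycle entry did not move as a block. Of 27 genes, 12 were at least 2-fold higher and 5 lower in cycling control cells, and 10 and 4 in the library labelled knockout. On the higher side stood the factors of the later cycle: E2f8 at 1.08 and 51 CPM in non-cycling and cycling control cells (1.60 and 43.1 in the other library), and Foxm1 at 0.270 and 44.3 CPM (0.640 and 42.3). Cdk4 and Cdk6, the kinases of the G1 phase, were higher, Cdk6 at 89.8 and 192 CPM and at 87.7 and 179 CPM. Their D cyclins were lower: Ccnd2 at 477 and 237 CPM in the control (log2 ratio -0.99, -1.19 to -0.81) and at 477 and 315 CPM in the library labelled knockout (-0.59, -0.75 to -0.43). Ccnd3 was at 176 and 95.3 CPM, and at 191 and 93.03 CPM. The brakes were lower too, Cdkn1b (p27) at 182 and 74.1 CPM (-1.24) and at 161 and 75.3 CPM (-1.05), and the antiproliferative Btg1 at 1459 and 461 CPM and at 1366 and 609.7 CPM. Myc, a driver of growth on activation, was at 36.96 and 39.5 CPM in the control and 45.8 and 37.7 CPM in the other library.

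Biosynthesis and glycolysis genes were higher in the dividing cells. From here to the comparison between the libraries, the level of a single gene is that of cells under the limit on other markers, and list counts name their set. Of 24 nucleotide and one-carbon genes, 14 were at least 2-fold higher in the control and 10 in the library labelled knockout, and under the limit 14 of 24 and 14 of 24. Phgdh, the first enzyme of serine synthesis, was at 55.6 and 212 CPM in non-cycling and cycling control cells and at 57.6 and 242 CPM in the library labelled knockout. Impdh1 did not share this, at 41.8 and 36.6 CPM and at 33.7 and 34.5 CPM, whereas Impdh2, the form of this guanine nucleotide enzyme that proliferating cells use, was at 60.6 and 184, and at 61.4 and 151.

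Glycolysis genes were at least 2-fold higher for 6 and 4 of 17 over all cells and for 11 and 10 under the limit, where the medians were 1.15 and 1.21. Gapdh was at 773 and 2396 CPM in non-cycling and cycling control cells and at 814 and 2848 CPM in the other library. Ldha, which turns pyruvate into lactate, was at 355 and 1074 CPM, and at 372 and 1158 CPM. Of 17 respiratory chain genes, 4 and 0 were past 2-fold over all cells (medians 0.79 and 0.55) and 5 and 3 under the limit (0.94 and 0.67).

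Genes of naive and memory T cells were lower in the dividing cells. Of 16 measured, 13 were at least 2-fold lower in cycling control cells (median -2.26) and 14 in the library labelled knockout (-2.17), and under the limit 13 (-2.43) and 15 (-2.70). Il7r (ENSMUSG00000003882, chromosome 15, 9505788 to 9530176, minus strand), the receptor for the survival cytokine IL-7, was at 606 CPM in non-cycling and 26.9 CPM in cycling control cells (log2 ratio -4.26, -4.77 to -3.77) and at 628 and 61.2 CPM in the library labelled knockout (-3.26, -3.71 to -2.83). Tcf7, the factor of self-renewing T cells, was at 475 and 61.3 CPM (-2.86) and at 379 and 62.8 CPM (-2.50). S1pr1, which lets T cells leave tissue, was at 229.6 and 18.3 CPM and at 196 and 4.71 CPM. In both libraries the ratios of Il7r and S1pr1 were lower than that of Tcf7.

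Other genes of quiescence were low with them. Klf2, which holds T cells in quiescence and drives S1pr1, was at 449.6 and 34.4 CPM in the control and at 449 and 23.5 CPM in the other library. The survival factor Bcl2 was at 355 and 47.3 CPM, and at 539.9 and 65.9 CPM. Igfbp4, a marker of naive cells, had no UMI in cycling cells under the limit, at least 22.7-fold and 9.36-fold lower than in non-cycling cells when 3 UMIs per summed group are taken as the floor. Dapl1, of the same list, was at 86.4 and 73.1 CPM in the control and at 65.1 and 1.57 CPM in the library labelled knockout. By the rule for the lowest genes beyond the lists, Pik3ip1, Nsg2 and Scml4 stood out, Pik3ip1 (an inhibitor of PI3 kinase) at 75.7 and 2.15 CPM and at 64.2 and 4.71 CPM. Cytokine receptors were at least 2-fold lower for 8 and 6 of 19 genes over all cells and for 9 and 9 under the limit, among them Il6ra at 97.4 and 11.8 CPM and at 84.8 and 3.14 CPM. Il2rb, the shared chain of the IL-2 and IL-15 receptors, was at 224 and 252 CPM and at 239 and 268 CPM.

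Trafficking receptors had medians of -0.65 in the control and -0.53 in the library labelled knockout over all cells, and of -0.76 and -0.56 under the limit. The control direction changed, to a median of 0.31, when the rule was applied after thinning to 2000 UMIs with its lower Mki67 and Top2a minimum. NK and innate-like genes had medians of -0.96 and -0.94 over all cells and -0.92 and -1.43 under the limit. Costimulatory genes had medians of -0.55 and -0.32 over all cells and -0.60 and -0.27 under the limit, but Tnfrsf9 (4-1BB), which antigen stimulation induces, was at 92.4 and 208 CPM in the control and at 160.3 and 389 CPM in the other library.

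**Figure D4:**
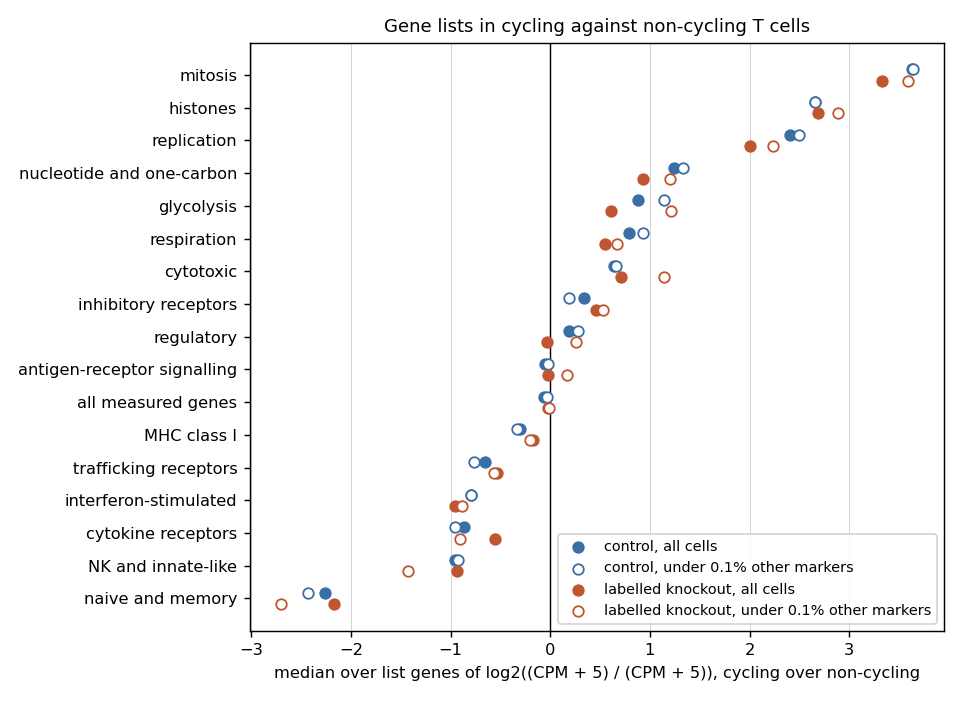
Median log2 ratio over the genes of each list, cycling over non-cycling T cells (x axis), for both libraries, over all cells (filled) and cells under 0.1% other markers (open). Of the lists drawn, mitosis genes stand highest, with medians of 3.63 and 3.33 over all cells, and naive and memory genes lowest, at -2.26 and -2.17.

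Inhibitory receptors split into a higher and a lower set. Of 17 genes, 6 were at least 2-fold higher and 1 lower in the control over all cells, and 7 and 1 in the library labelled knockout. Under the limit these were 5 and 2, and 8 and 2. Pdcd1 (PD-1; ENSMUSG00000026285, chromosome 1, 94038305 to 94052553, minus strand) was at 65.9 CPM in non-cycling and 154 CPM in cycling control cells (log2 ratio 1.16, 0.86 to 1.46; UMIs in 49 of 79 cells), and at 75.5 and 201 CPM in the library labelled knockout (1.36, 1.03 to 1.68; 30 of 47). Havcr2 (TIM-3) was at 25.1 and 111 CPM (1.94) and at 30.9 and 118 CPM (1.77). Lag3, an MHC class II receptor, was at 50.2 and 93.5 CPM, and at 71.2 and 152 CPM. Over all lineages together, the 3 receptors of exhausted cells were thus higher in cycling cells of both libraries.

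Btla and Vsir (VISTA), inhibitory receptors that naive T cells carry, went the other way. Btla was at 38.2 and 15.1 CPM in non-cycling and cycling control cells (-1.11) and at 24.8 and 7.85 CPM in the library labelled knockout (-1.22). Vsir was at 139.9 and 49.5 CPM (-1.41) and at 112 and 40.8 CPM (-1.35). The exhaustion factor Tox was at 173 and 257 CPM in the control and at 111 and 248 CPM in the library labelled knockout, past 2-fold only in the latter.

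Effector genes did not move as 1 group. Cytotoxic genes were at least 2-fold higher for 5 and lower for 2 of 19 genes in the control, and for 8 and 1 of 20 in the library labelled knockout over all cells. Under the limit these were 7 and 1 of 18, and 11 and 2 of 20. Gzmb (granzyme B; ENSMUSG00000015437, chromosome 14, 56258838 to 56262260, minus strand) was at 127 and 414 CPM in the control (1.66) and at 223 and 1039 CPM in the other library (2.20). Its UMIs were uneven, with 40.5% of them in 1 of the 79 control cells and 15.7% in 1 of the 47. Prf1 (perforin) was at 20.8 and 73.1 CPM and at 25.3 and 111 CPM. Ccl5, a chemokine that memory and effector CD8 cells store as transcript, was lower, at 4161 and 1334 CPM in the control (-1.64, -1.72 to -1.55) and at 4189 and 1712 CPM in the library labelled knockout (-1.29, -1.38 to -1.20).

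Since cycling cells hold more CD8 cells, the same comparison was made within the CD8 class under the limit (51 and 30 cycling against 425 and 280 non-cycling cells). Here 11% of genes were at least 2-fold higher and 9.66% lower in the control, and 12.1% and 9.4% in the library labelled knockout. Il7r was at 441 and 17.5 CPM in the control and at 551 and 39.4 CPM in the other library. Pdcd1 was at 86.5 and 174 CPM, with UMIs in 37 of 51 cycling cells, and at 91.2 and 229 CPM (21 of 30). Naive and memory genes kept medians of -2.33 and -2.73, and cytotoxic genes of 0.32 and 1.04. Inhibitory receptors differed more between the libraries here: 1 of 16 were at least 2-fold higher in the control (median 0.24) and 7 of 13 in the library labelled knockout (1.10), a difference that was not tested. Tox was at 236 and 279 CPM in the control and at 118 and 288 CPM in the other library, where the cycling levels are near each other and the non-cycling ones are not.

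Within the Foxp3 class the mitosis list had medians of 4.32 and 3.42 (cycling over non-cycling, control first), and the naive and memory list of -1.97 and -1.36. Under the limit the class held 17 cycling cells in the control and 7 in the other library, against 61 and 58 non-cycling cells chosen at lower depth, where a cell needs a higher Foxp3 level to show a UMI. At least 2-fold lower levels were seen for 7 of 13 regulatory genes in the control and 3 of 13 in the other library, where 13% and 15.4% of all genes were lower and 11.3% and 8.04% higher. The share of regulatory genes in the library labelled knockout is near that of all genes. Foxp3 itself, which chose the class, was at 763 and 249 CPM in non-cycling and cycling control cells, and at 799 and 325 CPM. Ctla4, the inhibitory receptor of regulatory T cells, was at 1126 and 608 CPM, and at 1354 and 804 CPM. Inhibitory receptors had medians of -0.56 and -1.07 in this class, and cytotoxic genes of -1.23 and -1.29. Pdcd1 was at 147 and 110 CPM, and at 160 and 170 CPM. Havcr2 was at 68.4 and 44.9 CPM, and at 95.9 and 15.5 CPM. Lag3 was at 47.4 and 54.9 CPM, and at 250 and 92.8 CPM. The part of depth in the lower levels of this class was not tested.

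The CD8 and Foxp3 classes of cycling cells kept their own programs. Under the limit, 15 of 18 cytotoxic genes were at least 2-fold higher in CD8 than in Foxp3 control cells and 8 of 9 regulatory genes lower, against 6.78% higher and 5% lower of all genes. In the library labelled knockout they were 14 of 18 and 8 of 9, against 11.9% and 6.91%. Nkg7, a granule protein of cytotoxic cells, was at 1453 CPM in CD8 and 219 CPM in Foxp3 control cells, and at 1704 and 696 CPM in the other library. Ikzf2 (Helios, a factor of regulatory T cells) was at 153 and 1481 CPM, and at 343 and 1561 CPM. The classes were set by Foxp3 and Cd8 UMIs, and Foxp3 is a gene of the regulatory list. The cycle programs had smaller ratios, with medians of CD8 over Foxp3 cells of -0.13 and 0.04 for mitosis and 0.57 and 0.32 for replication genes.

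Interferon-stimulated genes, which Usp18 restrains, were lower in cycling than in non-cycling cells of both libraries. Of 42 measured in the control 18 were at least 2-fold lower (median -0.80), and of 45 in the library labelled knockout 20 (median -0.95). Under the limit they were 16 of 39 and 17 of 39. With the rule applied after thinning, at its lower Mki67 and Top2a minimum, the medians were nearer 0, at -0.26 and -0.28. Slfn1, linked to T cell quiescence, was at 111 and 19.4 CPM, and at 105 and 34.5 CPM. Ly6e and Ifi27l2a were not lower by 2-fold in either library, Ly6e at 753 and 715 CPM and at 854 and 770.5 CPM. Receptor genes were lower as well, Ifnar1 at 121 and 47.3 CPM and at 111 and 50.2 CPM, and Ifngr1 at 598 and 261 CPM and at 681 and 282 CPM.

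Cycling macrophages of the same tumors (207 and 281 cells with at least 10 C1q UMIs, at least 3 of Mki67 and Top2a and no CD3 UMI) were set beside the cycling T cells, to see where the program differs between cell types. Under the limit, mitosis genes had median ratios of T cells over macrophages of 0.26 and 0.56. Histone genes were higher in the T cells, at least 2-fold for 9 and 10 of 16, against 10% and 8.79% of all genes higher and 16.5% and 18% lower. Hist1h1b was at 532 CPM in T cells and 227 CPM in macrophages of the control, and at 546 and 211 CPM in the other library. The D cyclins differed in kind: Ccnd1 was at 282 CPM in control macrophages and 49.5 CPM in T cells, where 3 cells held all its UMIs, and at 323 and 3.14 CPM in the library labelled knockout. Ccnd2 was higher in the T cells, at 61.9 CPM in macrophages and 221 CPM in T cells of the control, and at 144 and 260.5 CPM. These differences lie between the cell types within each library and were not tested.

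Between the libraries, many genes that differed over all members were genes of myeloid cells. Over all members, 3.37% of measured genes were at least 2-fold higher and 0.881% at least 2-fold lower in the library labelled knockout. The rule for named genes leaves out genes with over 25% of the UMIs of the higher sum in 1 cell. By this rule the largest ratios were those of Ccl2, Ccl9 and Ccl6, all chemokines of macrophages and monocytes. Ccl2 was at 1.92 and 93.03 CPM (control first, log2 ratio 3.82), Ccl9 at 9.62 and 181 CPM, and Ccl6 at 13.5 and 156 CPM. With them were Il1b at 4.81 and 69.2 CPM and Fcgr1, the high-affinity IgG receptor of macrophages, at 1.92 and 43.8 CPM. MHC class II genes were at least 2-fold higher for 7 of 7 (median 1.48), dendritic markers for 4 of 5 and macrophage markers for 5 of 7, with 1 lower. That one was Lyz2, at 199 CPM in the control and 2.31 CPM in the library labelled knockout. Dapl1, of the naive and memory list, was also lower, at 67.4 and 0.769 CPM. These lists overlap with the markers that set the 37 cells apart.

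Without the cells above the limit these myeloid genes no longer led, and the shares of genes past 2-fold were 0.951% higher and 1.57% lower. MHC class II genes then had a median of -0.88, with 2 of 5 at least 2-fold lower, and 1 control cell held 223 of the 575 MHC class II UMIs of its group. For interferon-stimulated genes, 14 of 36 were at least 2-fold higher (median 0.71) over all members and 0 of 23 (median 0.17) under the limit, where fewer genes of the list reached 20 UMIs. Ifitm3, an interferon-induced antiviral protein abundant in myeloid cells, was at 81.8 and 509 CPM over all members and at 5.38 and 12.6 CPM under the limit. Isg15 was at 8.66 and 149.9 CPM, but a single cell of the latter library carried 59.5% of the transcripts, and under the limit it was at 5.38 and 21.97 CPM, with too few UMIs to be counted among the measured genes. In non-cycling T cells under the limit, where 0.231% of genes were higher and 0.251% lower, the interferon list had a median ratio of 0.24.

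**Figure D5:**
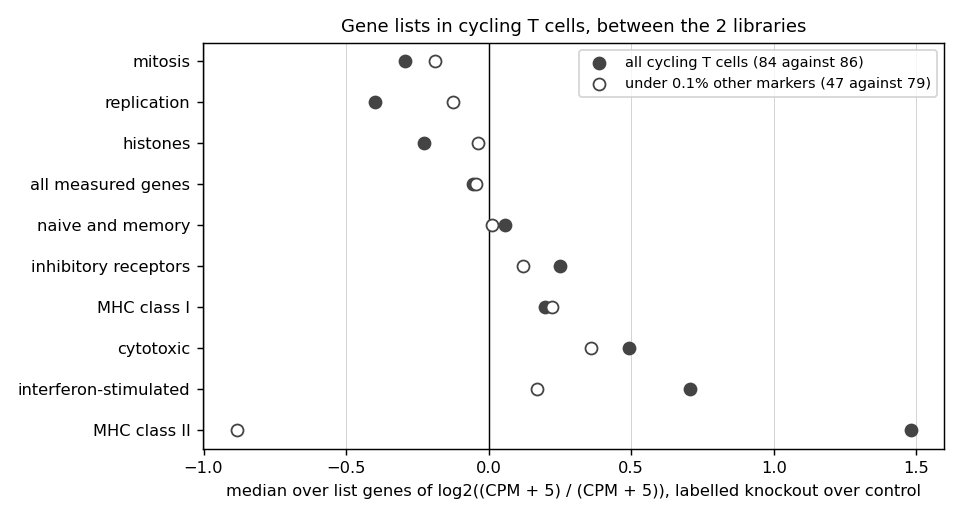
Median log2 ratio over the genes of each list in cycling T cells, library labelled knockout over control (x axis), over all members (filled, 84 against 86 cells) and under 0.1% other markers (open, 47 against 79). MHC class II genes go from 1.48 to -0.88 and interferon-stimulated genes from 0.71 to 0.17, while cytotoxic genes are at 0.49 and 0.36.

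Effector genes differed between the libraries in both sets of cells. Cytotoxic genes were at least 2-fold higher in the library labelled knockout for 5 and lower for 2 of 20 over all members (median 0.49), and for 6 and 1 of 20 under the limit (0.36). Gzmb was at 414 CPM in the control and 1039 CPM in the library labelled knockout under the limit (log2 ratio 1.32, 1.14 to 1.5), with UMIs in 43 of 79 and 33 of 47 cells. Without the top cell of each library Gzmb was at 259.8 and 915 CPM. The chemokine Ccl3 was at 609.6 and 1823 CPM, and at 401 and 973 CPM without the top cells. Ifng (interferon gamma) was at 169.9 and 351 CPM, and at 81.7 and 266 CPM without them. Gzma went the other way, at 152 and 31.4 CPM, and rested on few cells, at 27.1 and 6.44 CPM without the top ones. Xcl1 (lymphotactin, a chemokine of CD8 T cells that draws conventional dendritic cells) was lower as well, at 395 and 141 CPM over all members (22 of 86 and 13 of 84 cells) and at 441 and 282 CPM under the limit, and at 339 and 217 CPM there without the top cells. Within the CD8 class, where 1.52% of genes were higher and 2.52% lower, Gzmb was at 534 and 1161 CPM and Ifng at 247 and 515 CPM.

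The direction of this median differed between cells split by sex-linked transcripts. Among cells with Xist and no Y-linked UMI (14 control and 61 of the library labelled knockout) the median over cytotoxic genes was 0.88, and among those with Y-linked UMIs and no Xist (62 and 7) it was -0.47. The counts of 14 and 7 cells on the small sides limit both values, and the part of sex was not tested. In non-cycling T cells under the limit, the median between the libraries was 0.14.

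Other genes between the libraries under the limit were few. By the rule for the largest ratios, Csf1, the macrophage growth factor that activated T cells can make, was at 6.45 and 42.4 CPM (2.05, 1.15 to 2.85; UMIs in 6 of 79 and 13 of 47 cells). Ccrl2, an atypical chemokine receptor, was at 11.8 and 62.8 CPM (2.01), and Plac8 at 83.9 and 260.5 CPM (1.58). Lower in the library labelled knockout were Ddias, at 33.3 and 1.57 CPM (-2.54, -3.13 to -1.38), and Asns, asparagine synthetase, at 37.6 and 7.85 CPM (-1.73, -2.61 to -0.76). Csf1 and Plac8 kept their direction without the top cell of each library, at 5.44 and 33.9 and at 47.9 and 208 CPM.

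The cycle programs and inhibitory receptors had smaller ratios between the libraries. Over all members none of 40 replication and none of 54 mitosis genes was past 2-fold, with medians of -0.40 and -0.29 against -0.06 for all genes, and of -0.12 and -0.19 under the limit. Most were lower in the library labelled knockout: 3 of 40 and 8 of 54 were above 0, against 3705 of all 8396 measured genes. Under the limit 12 of 40 and 13 of 54 were above 0, against 3248 of 7254. Inhibitory receptors had medians of 0.25 and 0.12, with none of 16 and 14 past 2-fold. Pdcd1 was at 154 and 201 CPM under the limit (0.37, 0.03 to 0.72) and Lag3 at 93.5 and 152 CPM (0.67, 0.26 to 1.08). Naive and memory genes had medians of 0.06 and 0.01, and MHC class I genes of 0.20 and 0.22.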

How the data were processed

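Droplet single-cell RNA libraries of CD45+ tumor cells were analysed, 1 per group. The authors deposited raw UMI counts per gene and barcode, made with Cell Ranger 3.0.1 and build mm10 per the submitters' processing notes. The annotation behind the counts is not given in the sources used here. Of 27998 genes, 27645 have their identifier in GENCODE release 21 of GRCm38, which was used for coordinates only.

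Members were found by the rule stated in the report. The members, the 29 gene lists and the comparisons were chosen with earlier results of these data known. Of 508 list genes, 500 have an entry in the feature table. Counts were summed per library and class and given as CPM, with ratios on the scale of log2(CPM + 5), which understates changes of low genes. Genes needed at least 20 UMIs over the pair of sums, and called means past 2-fold. With 1 pooled library per group no test was possible. Shares carry exact Clopper-Pearson intervals, differences of shares Newcombe intervals, CPM exact Poisson intervals, and ratios log-normal intervals or combined Poisson limits. PCR and the spread between mice are not covered. A count of 0 is given a floor of 3 UMIs per summed group.

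Named genes belong to the lists. Beyond these, the rule took the 10 genes of largest ratio in each direction with at least 30 UMIs, UMIs in at least 5% of cells of the higher sum, and no cell with over 25% of that sum. Scrublet (scanpy 1.11.5) scored doublets in each library, marked at 0.8% per 1000 barcodes. Marked barcodes were kept, and left out as an alternative. The summing and ratio steps were tested on simulated counts. For the comparison between the libraries (8343 genes, 200 of them changed), 22 unchanged genes passed 2-fold, and for cycling over non-cycling control cells (9806 genes) 13 did. The simulated sums held counting error only and no spread between cells. They therefore cannot tell how many unchanged genes pass 2-fold in the real sums. Python 3.11.15, numpy 2.4.6, scipy 1.17.1 and pandas 2.3.3 were used. Alternatives were other limits of the rule, thinning to 2000 UMIs, the pseudocount, the UMI minimum, sex-linked transcripts, doublets and markers of other cell types. Where the rule was applied after thinning, any Mki67 or Top2a UMI was enough in place of at least 3.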

Additional observations from a re-analysis of the deposited data

Results flagged for a closer look

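Under the limit on other markers, 398 list genes with at least 30 UMIs in each library were compared between cycling and non-cycling T cells. For 2 of them the intervals of the ratio lay wholly on opposite sides of 0 in the 2 libraries. Genes of opposite sign with an interval that included 0 were not counted. Gzma (granzyme A) had a log2 ratio of 1.29 in the control and -1.28 in the library labelled knockout, and 1 cell held 82.3% of its UMIs among cycling control cells and 1 cell 80% among those of the other library. Egr1, an immediate early gene of antigen-receptor signalling and of cell handling, had ratios of 0.54 and -0.50, with 32.1% and 27.3% of its UMIs in 1 cell. These differences between the libraries were not tested.

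Xist is transcribed in female cells and Y-linked genes in male cells. Cycling T cells with UMIs of both numbered 3 in the control and 13 in the library labelled knockout. Of the latter, 10 were among the 37 cells at or above 0.1% other markers and 3 among the 47 under it.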

How the results depend on the processing

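No paired analysis was possible because each group is 1 pooled library with no replicate number. Of 206 alternative values of the main results, 153 stayed within the interval of the main value or, for counts of genes, near the main count. Another 44 lay further off and 9 changed direction. A change of direction was counted only where the main interval lay wholly on 1 side of no difference. The 153 can thus hold values of the other sign, as for the Foxp3 share of cycling cells (-0.69 points, up to 6.58 in the alternatives). List medians outside the main results kept their sign in 290 of 300 cases and named genes in 662 of 664. The 300 leave out list medians that stand among the 206 values instead. These are the cytotoxic and interferon-stimulated medians, the naive and memory medians of cycling over non-cycling cells, and MHC class II between the libraries. The causes of the moves below were not tested. Thinned values below use the rule with any Mki67 or Top2a UMI in place of at least 3. Values are log2 ratios unless a unit is given, and the cells of each setting limit them (Xist without Y-linked UMIs left 14 and 61 members, Y-linked UMIs without Xist 62 and 7).

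The cycling share of T cells (0.45, library labelled knockout over control) was -0.11 thinned to 2000 UMIs, -0.21 without barcodes of 3 or more other-marker UMIs (52 and 28 members left), -0.10 under the 0.1% limit, 1.21 among Xist cells and -0.40 among Y-linked cells. The CD8 share, cycling minus non-cycling, was 15.5 points thinned and 39.1 among Xist cells in the control.

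For cycling over non-cycling cells of the control, thinning gave medians of 0.28 for cytotoxic, -1.36 for naive and memory, -0.26 for interferon-stimulated and 0.31 for trafficking genes, and Xist cells gave -0.13 for cytotoxic genes. In the library labelled knockout cytotoxic genes were at 0.43 with a mitochondrial limit of 5%, 0.47 thinned, 1.23 without barcodes of 3 or more other-marker UMIs, 1.19 among Y-linked cells, 0.48 with at least 50 UMIs per gene and 1.14 under the limit. Naive and memory genes there were at -1.55, -1.73, -3.15 and -3.20 under the first 4 of these settings and -2.70 under the limit, and interferon-stimulated genes at -0.28 thinned and -1.70 among Y-linked cells.

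Between the libraries MHC class II genes were at 0.94 with the mitochondrial limit of 5%, 2.33 without Scrublet-marked barcodes, 0.16 without barcodes of 3 or more other-marker UMIs, 5.82 among Xist cells, -4.51 among Y-linked cells and -0.88 under the limit. Cytotoxic genes were at 0.88 and -0.47 among Xist and Y-linked cells, interferon-stimulated genes at 1.33 and -0.44 and at 0.17 under the limit, and among Y-linked cells MHC class I genes were at -0.18, Ifitm2 at -2.86 and Ifitm3 at -2.35.

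Genes at least 2-fold higher between the libraries (283) were 141 thinned, 109 without barcodes of 3 or more other-marker UMIs, 842 among Xist cells, 153 with at least 50 UMIs and 69 under the limit. Lower genes (74) were 166, 153, 342, 28 and 114 in that order, 904 among Y-linked cells and 170 with a pseudocount of 1. Genes higher in cycling cells of both libraries (473) were 138 thinned, 198 among Xist and 156 among Y-linked cells, and lower genes (342) 101 thinned, 154 among Y-linked cells and 529 with the pseudocount of 1.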

Other observations

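Helper genes were scarce in the cycling cells. Under the limit on other markers no UMI of Il4 or Il17a was seen in either library, and Cd40lg (CD40 ligand of helper cells) was at 14.7 CPM in non-cycling and 2.15 CPM in cycling control cells. Irf8, listed with interferon gamma targets and induced in activated CD8 T cells, stood against its list, at 62.9 and 187 CPM in the control (1.5, 1.21 to 1.79) and at 74.5 and 248 CPM in the library labelled knockout (1.67, 1.36 to 1.98). The list had medians of -0.90 and -0.39. Iigp1, an immunity-related GTPase of the same list, was at 34.8 and 6.45 CPM and at 59.0 and 43.9 CPM.

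MHC class I genes of cycling cells lay within 2-fold of non-cycling cells and were mostly lower. Under the limit their medians were -0.33 in the control and -0.20 in the library labelled knockout, with 2 and 4 of 13 genes above 0. H2-K1 was at 2944 and 2205 CPM in the control and at 3165 and 2577 CPM in the other library, and the immunoproteasome gene Psmb9 at 219 and 309.7 CPM and at 258 and 443 CPM. Between the libraries, Gm42418 was at 5174 CPM in cycling control cells and 1922 CPM in those of the library labelled knockout, and Lars2 at 129.9 and 44.6 CPM.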
